A study of Mus musculus with 3 samples.

Results

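The genes examined were 10 genes of innate RNA sensing and of the type I interferon response, Tlr3, Tlr4, Ddx58, Ifih1, Mavs, Irf3, Irf7, Ifnb1, Ifnar1 and Isg15. They were chosen by name, as the genes whose RefSeq accession, without its version, was carried by a probe of the array that was not a control. All 10 had a probe, among 20660 genes that could be named in this way, and together they had 15 probes. The measurements came from 3 cultures of 1 group, which the labels number as replicates 1 to 3. Each culture was of J1 mESCs, a mouse embryonic stem cell line of strain 129S4/SvJae, grown without feeder cells on gelatin in medium with knockout serum replacement. All 3 cultures received leukemia inhibitory factor (LIF) at 1000 U/mL together with 1 µM PD0325901 (PD), an inhibitor of the kinase MEK, for 24 h. Cells without PD were not analysed here, so no value below is an effect of PD.

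Cells recognise viral RNA through receptors in endosomes, such as TLR3, and through helicases in the cytosol, such as RIG-I (the product of Ddx58) and MDA5 (the product of Ifih1). The helicases act through the adaptor MAVS, and the signal ends in the transcription factors IRF3 and IRF7, which switch on Ifnb1 and other interferon genes. Secreted interferon binds the receptor made of IFNAR1 and IFNAR2, and JAK kinases, STAT proteins and IRF9 then switch on interferon-stimulated genes such as Isg15. Embryonic stem cells are known for a weak interferon response compared with differentiated cells.

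An Agilent mouse expression array with Cy3 as the only dye was used for the RNA of each culture, and the values below are processed signals, which are spot intensities with the background subtracted. A probe was detected on an array if the scanner software marked at least 50% of its spots as well above background. Signals with that mark began at 10.1, 11.4 and 10.3 on the arrays of replicates 1, 2 and 3, and of 308 negative control spots 1.62%, 5.19% and 1.30% carried it. A level is the log2 of the signal relative to the 75th percentile of its array, which was 619, 578 and 594. Signal depends on the sequence of a probe as well as on the amount of RNA, so signals of different probes were not ranked. The defining markers of the labelled cell type, Pou5f1, Nanog and Sox2, were detected on all 3 arrays, as were all 10 pluripotent cell markers listed. Of 8 macrophage and leukocyte markers on the array 5 were detected, with Ptprc at 12.2, 15.3 and 13.5, Adgre1 at 33.0, 25.0 and 25.7, Csf1r at 456, 249 and 421, Itgam at 9320, 8491 and 8215 and Cd3e at 1568, 1636 and 1516, while Lyz2, Fcgr1 and Tyrobp were detected on no array. Of 10 fibroblast markers 7 were detected, Col1a1 and Col1a2 among them and Col3a1 not. Their part in the results below was not tested. On replicate 2, spots of uneven brightness gathered in 6 of 48 blocks of the array (10 or more such spots in a block, a limit set after the counts were seen), and no probe of the 10 genes lay in those blocks.

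Of the 10 genes, 5 were detected on all 3 arrays (Ddx58, Mavs, Irf3, Ifnar1 and Isg15) and 5 were detected on no array (Tlr3, Tlr4, Ifih1, Irf7 and Ifnb1). Over all named genes, 72.7% were detected on all 3 arrays (15026 of 20660). Among the 15 probes, 8 were detected on all 3 arrays, 7 on none and 0 on 1 or 2 arrays, so the arrays gave the same answer for every probe. The 7 undetected probes gave signals from 2.04 to 9.06, all of them below 10.1. For these probes the array gives only an upper bound, and in a culture few cells with a transcript and little transcript per cell cannot be told apart.

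**Figure D1:**
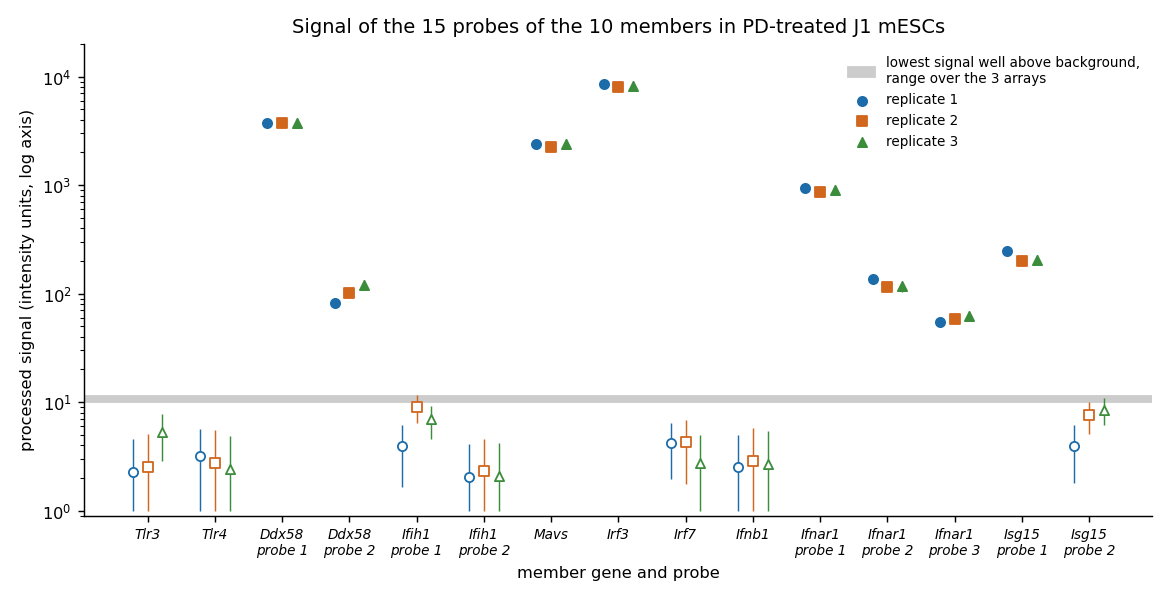
Processed signal (intensity units, log axis) of each probe of the 10 genes on the 3 arrays of PD-treated J1 mESCs. Filled symbols are probes well above background, open symbols are probes that were not, vertical lines are ± the error the scanner software gave for a spot, cut at the bottom of the axis, and the grey band spans the lowest signals well above background, 10.1 to 11.4. The 8 detected probes lie above the band and the 7 others below it on every array, and heights of different probes are not comparable.

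The receptors of the Toll-like family came first in the pathway, and both were undetected. Tlr3, the endosomal receptor for double-stranded RNA, gave 2.27, 2.55 and 5.29 on the arrays of replicates 1, 2 and 3. These signals were above 34.7%, 31.8% and 97.7% of the negative control spots of the same array, so replicate 3 was near the top of the controls and the other arrays were in their lower part. The software marked the replicate 3 signal as positive and significant, its weaker mark of detection, and not as well above background. Tlr4, the surface receptor for bacterial lipopolysaccharide, which also signals to IRF3, gave 3.19, 2.74 and 2.42 as the mean of 2 spots per array. Here replicate 1 was above 95.1% of the negative control spots, and replicates 2 and 3 lay in the middle of them at 47.4% and 45.8%. The replicate 1 signal was marked as positive and significant, and no array had it well above background.

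The cytosolic sensors Ddx58 and Ifih1 differed in detection. Ddx58 had 2 probes. Probe 1 (A_55_P1965000) gave 3735, 3703 and 3758, a level of 2.64 ± 0.05 (SD, n = 3), and its highest signal was 1.01 times its lowest. Probe 2 (A_52_P385536) was also detected on every array, at 82.3, 101 and 121, a level of -2.57 ± 0.31 (SD, n = 3). The arrays were close together on probe 1 and spread out on probe 2, where replicate 3 was 1.47 times replicate 1. The spread of probe 2 was above that of 95.5% of the detected genes, and the median SD was 0.14 among genes of like level (all detected genes were cut by level into 4 parts of equal size). Ifih1 was detected with neither of its 2 probes. Probe 1 (A_55_P2005783) gave 3.93, 9.06 and 6.92, above 95.5%, 94.5% and 98.4% of the negative control spots, and was positive and significant on all 3 arrays. Probe 2 (A_55_P1978987) gave 2.04, 2.30 and 2.08, above 4.22%, 4.55% and 4.22% of them, and had neither mark on any array. The probes of Ifih1 thus lay near opposite ends of the negative controls, and no probe sequences or positions in the transcript were used here.

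Both sensor genes carry, just after their start site, the letters GAAANNGAAA, the core of the interferon-stimulated response element (ISRE) that factors of the IRF family bind. It was searched on both strands in RefSeq promoters of GRCm38.p6, from 250 bases before the start site to 50 after it. Of 32851 promoters 3.44% held it. Of the 10 genes 9 had a promoter in that table (Tlr4 had no entry), and 3 of those held the letters, Ddx58, Ifih1 and Isg15. The stretches of Ddx58 and Ifih1 around the match are shown because the detected and the undetected sensor share it. Both are 30 bases long, 5′ to 3′ on the strand of the gene (minus for both), with the match in capitals. That of Ddx58 lies at chr4:40239804-40239833 and holds the letters on the opposite strand from base 3 of the transcript, and that of Ifih1 lies at chr2:62646206-62646235 and holds them on the strand of the gene from base 33.
Ddx58: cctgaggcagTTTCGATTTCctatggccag
Ifih1: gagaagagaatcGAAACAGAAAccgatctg

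A match is a description of the letters and does not show that a factor binds there. The same letters stood beside a detected gene in Ddx58 and beside an undetected gene in Ifih1. Over the genes on the array with a promoter in the table, 416 of 647 with GAAANNGAAA were detected (64.3%), against 11542 of 15727 without it (73.4%). Among the genes of the pathway lists described below, 35 of 107 with a promoter held it (32.7%).

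Mavs, the adaptor on mitochondria through which both helicases signal, was detected with its 1 probe. It gave 2388, 2264 and 2405, a level of 1.98 ± 0.04 (SD, n = 3). The 3 arrays were within 1.06-fold of each other, and the spread was below that of most detected genes, at the 17.1 percentile of their SDs.

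The factors Irf3 and Irf7 were detected and undetected, respectively. Irf3, which is made in most cells and is activated by phosphorylation, gave 8562, 8072 and 8285, a level of 3.80 ± 0.01 (SD, n = 3). Once scaled, its 3 levels were 3.79, 3.80 and 3.80, and its SD was lower than that of all but 0.947% of the detected genes. This depended on the scaling, since its SD was 0.052 with the arrays scaled by their medians. Irf7, which in many cells is itself induced by interferon and amplifies the response, gave 4.20, 4.27 and 2.75. These signals were above 95.5%, 92.2% and 89.9% of the negative control spots, and all 3 were positive and significant without being well above background. Neither promoter held GAAANNGAAA, which says only that these letters were not in the window searched.

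Ifnb1, the gene of interferon beta, gave 2.50, 2.86 and 2.68. The signals lay within the negative controls, above 62.0%, 62.0% and 72.1% of them, and carried neither mark of detection on any array. The error that the software gave for this spot was as large as its signal (100.3% on average), against at most 10.6% for the 8 detected probes. The promoter of Ifnb1 is shown because the virus-responsive enhancer of this gene is a textbook binding region of IRF3 and IRF7. It is given over the 250 bases before the start site, chr4:88522795-88523044 of GRCm38.p6, minus strand, 5′ to 3′, with each AANNGAAA, the letters of a single IRF site, in capitals.
Ifnb1: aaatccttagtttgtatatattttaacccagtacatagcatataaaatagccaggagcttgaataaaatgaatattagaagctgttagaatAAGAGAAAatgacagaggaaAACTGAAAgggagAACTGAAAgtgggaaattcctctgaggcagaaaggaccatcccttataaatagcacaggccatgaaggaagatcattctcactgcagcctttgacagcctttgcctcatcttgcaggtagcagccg

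The matches began 159, 139 and 126 bases before the start site, all on the strand of the gene. AANNGAAA is contained in every GAAANNGAAA, and it is common, since 23.9% of all promoters in the table held it on either strand. It was in the promoters of 5 of the 9 genes (Tlr3, Ddx58, Ifih1, Ifnb1 and Isg15) and in 54 of 107 promoters of the pathway lists (50.5%). Of those 5 genes, Ddx58 and Isg15 were detected and the others were not.

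Ifnar1, the receptor subunit without which type I interferons do not signal, was detected with all 3 of its probes. Probe 1 (A_55_P2036337) gave 947, 865 and 905, a level of 0.60 ± 0.02 (SD, n = 3). Probe 2 (A_55_P2454784) gave 138, 115 and 116, a level of -2.28 ± 0.10 (SD, n = 3). Probe 3 (A_55_P2438722) gave 55.2, 58.3 and 62.2, a level of -3.35 ± 0.12 (SD, n = 3). Replicate 1 had the highest level on probes 1 and 2 and the lowest on probe 3, so the order of the arrays was not shared by the probes of this gene. Its promoter held none of the IRF letters and held TTCNNNGAA, the letters of the gamma-activated sequence of STAT dimers, from 5 bases before the start site. On both strands 8.30% of all promoters held TTCNNNGAA.

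Isg15, an interferon-stimulated gene whose ubiquitin-like product is attached to other proteins, was detected with 1 of 2 probes. Probe 1 (A_55_P2103698) gave 248, 200 and 205, with levels of -1.32, -1.53 and -1.53 and a mean of -1.46 ± 0.12 (SD, n = 3). Replicate 1 was the highest and replicates 2 and 3 were together, and the highest signal was 1.24 times the lowest. Probe 2 (A_66_P128537) gave 3.95, 7.61 and 8.50, above 95.5%, 93.5% and 98.4% of the negative control spots, and was positive and significant but not well above background on all 3 arrays. Such a disagreement between probes was found in 974 of the 5476 named genes with several probes (17.8%), and among the 10 genes, 4 of which had several probes, Isg15 alone showed it. The promoter of Isg15 is shown because it holds 3 matches to the ISRE letters, against 1 each in Ddx58 and Ifih1. The 250 bases before the start site, chr4:156200819-156201068 of GRCm38.p6, minus strand, are given 5′ to 3′ with the letters GAAANNGAAA in capitals.
Isg15: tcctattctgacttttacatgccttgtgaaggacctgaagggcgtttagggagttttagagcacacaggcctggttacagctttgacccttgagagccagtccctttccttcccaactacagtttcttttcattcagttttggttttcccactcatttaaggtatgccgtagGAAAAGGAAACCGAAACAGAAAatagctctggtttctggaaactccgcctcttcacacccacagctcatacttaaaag

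The capitals are 3 overlapping matches that began 78, 72 and 66 bases before the start site, all on the strand of the gene. Isg15 was thus detected, with 1 of its 2 probes, in cultures in which Ifnb1 was not. The signal of that probe averaged 218. The detected Vmn1r genes, receptors of the vomeronasal organ that serve below as a low bound, averaged from 14.3 to 271.

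Among the 5 detected genes the arrays differed little. Their SDs over the 3 arrays, each for the probe with the highest level, ran from 0.0078 for Irf3 to 0.12 for Isg15 with a median of 0.035, and the median SD of all 14999 detected genes with unflagged spots was 0.073. With median scaling these medians were 0.067 and 0.080. They were 0.014 and 0.066 without replicate 1, 0.048 and 0.050 without replicate 2, and 0.022 and 0.064 without replicate 3. Spread fell with level over those genes, with a median SD of 0.14 in the lowest of the 4 parts by level and 0.076, 0.059 and 0.054 in the next ones. Compared with their own level part, Ddx58, Mavs, Irf3 and Ifnar1 were below the median and Isg15 was above it. Over all 8 detected probes of the genes the median SD was 0.073, against 0.076 over the detected named probes. No detected gene of the 10 had arrays more than 1 log2 unit apart, and 0.987% of the detected named genes did (148 of 14999). Replicate 1 had the highest level on 3 of the 8 probes, replicate 2 on 2 and replicate 3 on 3, but the order of the arrays depended on the scaling. With the arrays scaled by their medians, replicate 3 was highest on 6 of the 8 probes, replicate 1 on 2 and replicate 2 on 0.

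**Figure D2:**
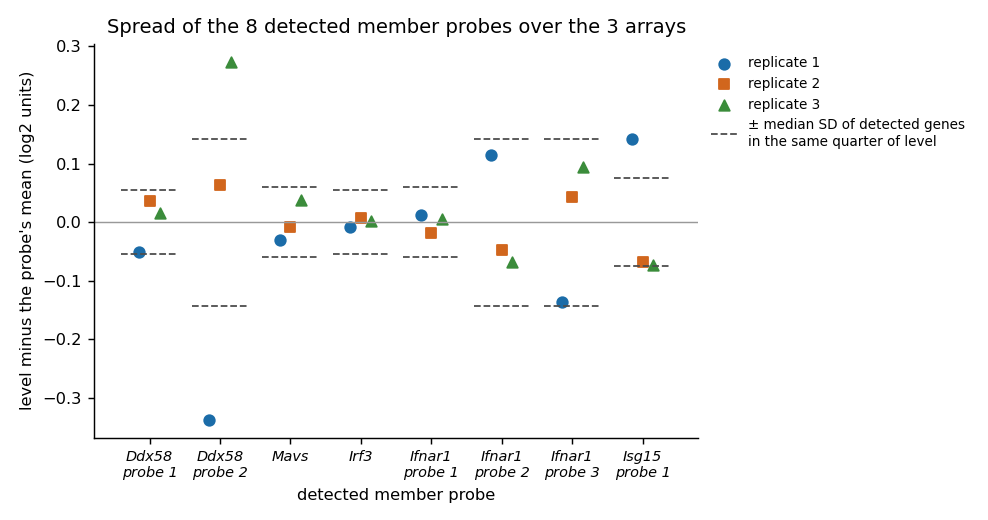
Level of each of the 8 detected probes on each array minus the mean of that probe (log2 units), with dashed lines at ± the median SD of detected genes of like level (4 parts of equal size). Ddx58 probe 2 spans 0.61 log2 units, with replicate 1 lowest and replicate 3 highest, and the points of Irf3 lie within 0.02 of each other.

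The other genes of the pathway were described from 8 lists by role. The lists held 121 further genes with a probe, of which 96 were detected on all 3 arrays (79.3%), 4 on some arrays and 21 on none. Over all named genes the share detected on all 3 arrays was 72.7%. A low bound for this measure came from the Vmn1r genes, receptors of the vomeronasal organ, of which 22 of 166 were detected (13.3%). In the lists of cytosolic nucleic acid sensors and their cofactors (12 of 12) and of interferon receptors with their JAK and STAT proteins (9 of 9) every gene was detected. The lowest share was that of the interferons, 9 of 15.

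**Figure D3:**
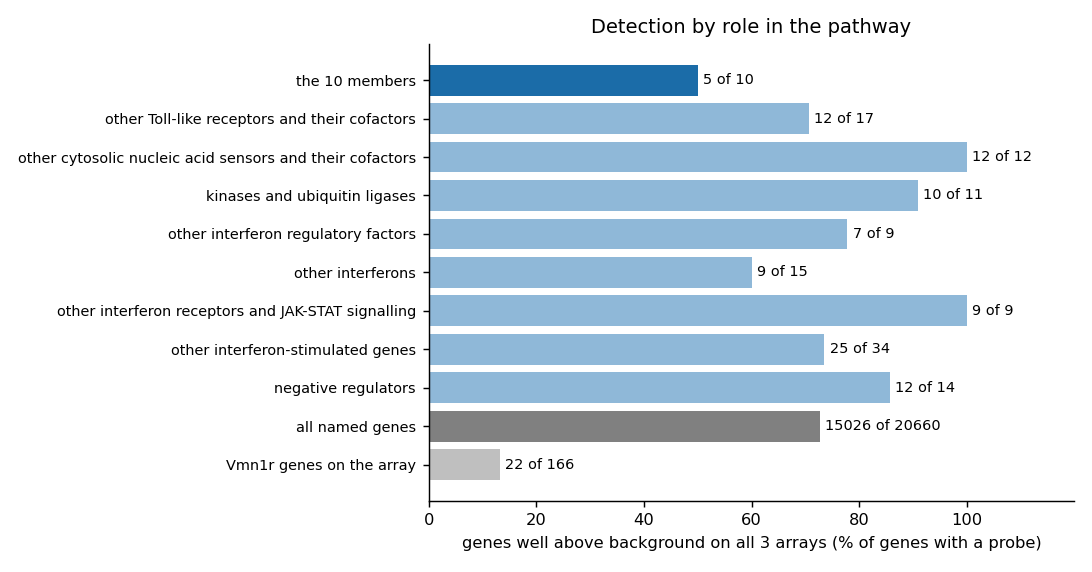
Share of genes that were well above background on all 3 arrays (% of genes with a probe), for the 10 genes, the other genes of the pathway by role, all named genes and the Vmn1r genes, with the counts beside the bars. The role lists leave out the 10 genes. Their shares run from 9 of 15 for the other interferons to 12 of 12 for the other cytosolic sensors. The 10 genes (5 of 10) lie below all named genes (15026 of 20660) and above the Vmn1r genes (22 of 166).

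Among the other Toll-like receptors 6 of 10 were detected. Tlr9, a receptor for DNA, gave 2540, 2355 and 2461, Tlr7, a receptor for single-stranded RNA, gave 614, 661 and 478 with 1 of its 2 probes, and Tlr13, which binds bacterial ribosomal RNA, gave 399, 382 and 390. Tlr1, Tlr2 and Tlr5 were detected too, while Tlr6, Tlr8, Tlr11 and Tlr12 were detected on none. These receptors were picked for mention after their values were seen. The adaptors Myd88 (531, 495 and 520) and Ticam1 (244, 225 and 217) were detected on every array, and TLR3 signals through Ticam1. Ticam2, which links TLR4 to Ticam1, was undetected, and the other cofactors (Cd14, Ly96, Unc93b1 and Tirap) were detected. Thus the adaptor of TLR3 was measured well above background on arrays on which Tlr3 itself was not.

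In the list of cytosolic sensors, Dhx58, which encodes LGP2, the helicase that modulates RIG-I and MDA5, gave 82.2, 87.6 and 73.3. Trim25, a ubiquitin ligase that activates RIG-I, gave 23919, 20936 and 21874. Eif2ak2, the kinase PKR that stops translation on double-stranded RNA, gave 453, 400 and 398. With Ddx58, 2 of the 3 RIG-I-like helicases were therefore detected, and the one that was not was Ifih1. The signals of Dhx58 averaged 81.0, and those of the detected Vmn1r genes had a median of 75.6.

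In the list of kinases and ubiquitin ligases of these pathways, which also holds Irak1 and Irak4 of the Toll-like receptor branch and the scaffold proteins Tank and Tbkbp1, 10 of 11 genes were detected. Traf3, the ligase that joins MAVS to the kinases, gave 2097, 1896 and 1758. Tbk1, the kinase of IRF3, gave 1045, 628 and 1053, so replicate 2 was well below the others, and its probe lay in 1 of the 6 blocks of replicate 2 with uneven spots. Its level was 0.57 ± 0.39 (SD, n = 3), and what part the block had in this was not tested. Ikbke, the related kinase, gave 10.1, 2.65 and 3.20 and was well above background on no array. Of the other interferon regulatory factors and their cofactors 7 of 9 were detected, with Irf2 and Irf4 detected on none.

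Of the 20 other interferon genes listed, 15 had a matched probe and 9 were detected. Among these were 8 of 11 interferon alpha genes and Ifnl3. The signals of the 9 detected genes averaged from 17.7 to 170 over the arrays, with a median of 79.4. Those of the detected Vmn1r genes averaged from 14.3 to 271, with a median of 75.6. The median over all detected named genes was 812. The interferon alpha genes are close copies of one another, so a probe of 1 gene can bind RNA of another. Ifna4, Ifna16, Ifnk and Ifng were detected on no array. Ifna11 and Ifne were each well above background on 1 array.

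Every receptor subunit of the interferons was detected, 6 of 6 with Ifnar1. Ifnar2, the partner of Ifnar1, gave 1731, 1622 and 1715. The kinases Jak1 (1950, 1943 and 1857) and Tyk2 (354, 291 and 373), which bind these subunits, were detected as well. Stat2, a signal transducer of the type I receptor, gave 2235, 2230 and 2237 and Irf9, its DNA-binding partner, gave 992, 948 and 1002. Every part of the receptor pathway that was listed was thus above background.

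Other interferon-stimulated genes were detected in 25 of 34 cases (73.5%), close to the 72.7% over all named genes. Oas1a, a synthetase activated by double-stranded RNA, gave 1782, 1753 and 1723, and 5 of 6 Oas and Oasl genes and 3 of 3 Ifitm genes were detected. Ifit1, which binds viral RNA ends, gave 2.20, 2.38 and 2.17 and was detected on no array, like Ifit3, Oas1g, Rsad2, Ifi44, Ifi204 and Herc6. Rsad2, the antiviral enzyme viperin, gave 8.95, 3.64 and 7.14. Of 3 Ifit genes only Ifit2 was detected, at 15.2, 13.6 and 12.6. Tap1 and Uba7 were well above background on 2 arrays each. Mx1 and Mx2 had no matched probe and have no value here.

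The enzymes that attach and remove the ISG15 protein were followed after their values were seen. Ube2l6, the conjugating enzyme, gave 3219, 3019 and 3170 and was detected. Uba7, the activating enzyme, gave 12.8, 13.5 and 8.68, and Herc6, the mouse ligase, gave 4.01, 4.51 and 8.95 with the brighter of 2 probes, neither of them detected. Usp18, which removes ISG15 and restrains the receptor, gave 8.09, 10.8 and 8.88 and was detected on no array. Isg15 and Ube2l6 were thus the members of this set that passed on all arrays.

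**Figure D4:**
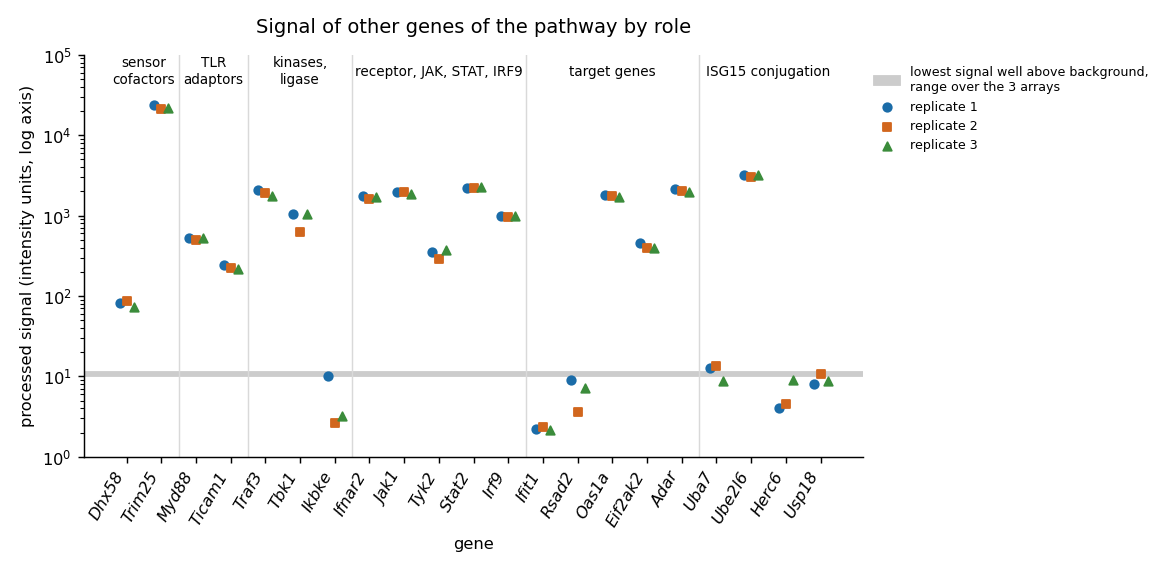
Processed signal (intensity units, log axis) of other genes of the pathway on the 3 arrays, by role, with the grey band spanning the lowest signals well above background, 10.1 to 11.4. Ikbke, Ifit1, Rsad2, Herc6 and Usp18 were well above background on no array and Uba7 on 2, while the other genes were on all 3, and heights of different genes are not comparable.

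Of 14 negative regulators 12 were detected, with Usp18 and Trim30a detected on none. Adar, the RNA editing enzyme that keeps cellular double-stranded RNA from activating MDA5, gave 2139, 2036 and 1993. The 3 arrays were close for this gene, whose level was 1.78 ± 0.04 (SD, n = 3).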

How the data were processed

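RNA of 3 PD-treated J1 mESC cultures was measured on 1 Agilent array each, on 1 slide and in 1 scan. Per the file headers, the deposited intensities came from Agilent Feature Extraction 10.7.3.1, which subtracted the background, removed spatial trends and set the flags per spot. The authors did not normalize these intensities between arrays. The authors also deposited a table of log2 values per probe, whose normalization is not given in the sources used here. Probes were named by accession through the RefSeq table of GRCm38.p6 (27235 of 55681 probes matched, 20660 genes).

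A level was the log2 of the processed signal, averaged over spots without outlier flags, minus the log2 of the 75th percentile over spots that were not controls. Where a gene had several probes, the one of highest mean level stood for it. Outlier flags were on 0 spots of the 10 genes, and no spot was saturated. The methods describe independent experiments, and with 3 arrays each SD is imprecise. With 1 group no test between conditions was possible. A planned test of arrays by limma 3.58.1 in R 4.3.3, for probes with 10 spots, was not used because none of the 10 genes has such a probe. limma gave the quantile and normexp (offset 50) alternatives, and Python 3.11.15 with pandas 2.3.3 and numpy 2.4.6 the rest. Scripts were tested on simulated data. The 10 genes and the lists (8 by role, 3 of cell type markers) were chosen with earlier results of these data known. Some genes of the lists are not reported here. All 10 genes are named with every probe, and values of other genes are given by a list of the nearest partners in the pathway, or, where said, after they were seen. Alternatives were other scalings, background correction, detection rules, probe rules, the deposited table, no filter on dim probes and leaving out each replicate.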

Additional observations from a re-analysis of the deposited data

How the results depend on the processing

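The number of the 10 genes detected was 5 and stayed at 5 with at least 2 arrays, with any array, with any probe of a gene and without each replicate. As every probe of these genes was detected on all 3 arrays or on none, these settings could not change the count. The number was 7 with the positive and significant mark, which added Ifih1 and Irf7, and 4 where every probe of a gene had to be detected, which left out Isg15. The share of all named genes with the positive and significant mark is not given here, so the 7 has no background beside it. For the pathway lists the count of 96 became 104 and 88 under those rules, and ran from 96 to 97 without each replicate. With no filter on dim probes, the median SD of the genes was 0.14 in place of 0.035 and the number with arrays more than 1 log2 unit apart was 2 in place of 0 (Tlr3 and Ifih1, both undetected). Under the other scalings, the deposited table and normexp the median SD ran from 0.034 to 0.067, and without each replicate from 0.014 to 0.048. Of 45 comparisons of a detected gene's level 38 moved by less than the spread between replicates. Part of these could not move. Scaling by the 75th percentile over detected probes or by the median of each array left every gene's mean level unchanged. Mavs, Irf3 and Isg15 had 1 detected probe each, so the mean over detected probes was their main level. The mean over detected probes gave levels of 0.04 for Ddx58 and -1.68 for Ifnar1, and the largest other move was 0.27. The replicate with the highest level was unchanged in 19 of 25 comparisons, and in 2 of 5 when arrays were scaled by the median, where Ddx58, Irf3 and Ifnar1 moved to replicate 3, and it was the same in every one for Mavs and Isg15. No paired analysis was possible because the labels give only 1 group. Signal over background limits the undetected probes to an upper bound.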

Other observations

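Ifne, an interferon of the reproductive tract, gave 2.26 on replicate 1, 265 on replicate 2 and 2.24 on replicate 3. Its single spot on replicate 2 carried the outlier flag of the scanner software and lay in none of the 6 blocks with uneven spots. Replicates 1 and 3 were not well above background for this gene. Bst2, the gene of tetherin, which holds budding virus at the cell surface, gave 5295, 2735 and 6014, and was the only detected gene of the pathway lists with arrays more than 1 log2 unit apart (1.10). Its probe lay in 1 of those blocks, and the part of the block in this was not tested. Genes of antigen presentation in the list of interferon-stimulated genes differed in detection. B2m, the light chain of class I molecules, gave 1523, 1488 and 1496 and Psmb9, an immunoproteasome subunit, gave 369, 421 and 404, while Tap1, the peptide transporter, gave 17.9, 12.6 and 17.9 and was detected on 2 arrays. All of these genes were chosen after their values were seen.

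Among the negative regulators, Socs3, an inhibitor of JAK signalling that LIF induces in these cells, gave 12912, 15327 and 15679, with replicate 1 the lowest. Samhd1, an enzyme that degrades nucleotides, gave 4833, 4850 and 4827 before scaling, and its level was 3.02 ± 0.05 (SD, n = 3). The probe of Samhd1 also lay in a block with uneven spots.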
